A study of Mus musculus with 8 samples.

Results

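The transcription factor Nrf2 and the genes of glutathione and thioredoxin redox defence that it is known to control were followed in small-intestinal tissue. The mice were C57BL/6J Min/+, which carry the Min mutation of the Apc tumour suppressor and develop intestinal adenomas. The 10 genes were chosen by symbol (Nfe2l2, Keap1, Nqo1, Slc7a11, Gclc, Gclm, Gsr, Gpx2, Txnrd1 and Srxn1), out of 20017 genes with a symbol on the array. They were represented by 11 probes. Total RNA was labelled with Cy3 and hybridised to 8 single-colour Agilent arrays, each holding RNA of 1 to 3 mice, and the feeding experiment is given as 18 months. The 4 groups of 2 arrays were Western-diet males, Western-diet females, control-diet males and control-diet females. The Western-type diet was a modified AIN-93G with more fat and less fibre, vitamin D, calcium and folate, in which milk supplied 66.4% of the fat and rapeseed and sunflower oil 33.6%, and the control diet was plain semisynthetic AIN-93G. All mice carried the Min allele, so no group without it was set against them, and the ages of the mice are not given in the sources used here. Whether both arrays of a group came from separate mice is not stated, so the tests weigh differences against array-to-array spread that may be technical.

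Nrf2, encoded by Nfe2l2, is held at a low level by Keap1, which presents it to a ubiquitin ligase for breakdown. Electrophiles and oxidants modify Keap1, and Nrf2 then accumulates and binds antioxidant response elements in its target genes together with small Maf proteins. This control acts largely on the protein, so the transcript of Nfe2l2 need not follow the activity of Nrf2. In the intestine the pathway is known for the detoxification of dietary compounds and for the supply of glutathione and of reduced thioredoxin.

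To show what the promoters of these genes hold, the core letters of the antioxidant response element, TGACNNNGC, were searched on both strands of RefSeq promoter sequences (assembly GRCm38.p6), which run from 250 bases before a gene's start to 50 bases after it. Sequences matched 8 of the 10 genes (10 promoters, 3 of them of Txnrd1). A match was found in 4 of these 10 promoters, against 12.4% of all 32851 promoters. The matches that lie before the start are printed with their surroundings on the gene's strand, with the match in capitals. In Gclm and Txnrd1 the capitals read as the reverse complement of the motif. None of the matches contained the AP-1 site TGACTCA.
Nfe2l2, chr2:75704870-75704913, minus strand: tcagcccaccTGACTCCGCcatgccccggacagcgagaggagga
Gclm, chr3:122245398-122245456, plus strand: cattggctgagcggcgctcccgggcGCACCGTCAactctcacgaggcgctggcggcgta
Txnrd1, chr10:82859089-82859147, plus strand: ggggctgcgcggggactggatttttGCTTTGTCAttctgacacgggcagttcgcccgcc
Counted from the start, the match spans -240 to -232 in Nfe2l2, -134 to -126 in Gclm and -92 to -84 in Txnrd1, where it is in 1 of the 3 promoters. The match of Srxn1 lay after the start and is not printed. The promoters used here for Keap1, Nqo1, Slc7a11 and Gpx2 held none. A match is a description of the letters in this window.

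Levels are given as log2 signal relative to the array's own 75th percentile, so 0 is the level of that percentile and 1 unit is a doubling. The 75th percentile lay between 457 and 828 signal units, and 55.1% to 61.9% of probes were well above background on 7 arrays, against 75.6% on Control female 2, which also stood apart on the first principal component (43.0% of the variance, score 145.3 against -32.8 to -0.42). The library labelled Control female 1 went against its label. Its Y-linked Ddx3y measured -0.35, against -0.91 to -0.55 on the 4 male arrays and -7.45 to -6.82 on the other female arrays, and Eif2s3y measured 2.01, against 1.88 to 2.57 and -7.16 to -5.47. The name of its deposited file also points to the Western diet, whereas its labels give the control diet. It was kept in the group of its labels, and the diet results are also given without it and without Control female 2. Diet differences gave the sexes equal weight. With either of these arrays left out, the other alone made up the control female mean. The tissue label was borne out by its markers: 6 of 6 epithelial and 5 of 5 enterocyte markers were well above background on all 8 arrays. The slides and scan days read from the file headers were checked as batches: slide 1 held replicate 1 of every group, slide 2 held Western male 2, and slide 3, scanned on a later day, held Western female 2, Control male 2 and Control female 2.

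The main comparison set the Western diet against the control diet. Of the 9 genes that could be tested, 8 had a positive difference and 1 a negative one. Their median log2 difference was 0.25, against -0.049 over all 21303 genes tested, of which 42% were above 0. All 9 were well above background on all 8 arrays, whereas the 21303 include dimmer genes. Over the genes well above background on all 8 arrays the median was -0.011. None passed the test: by limma, 0 of the 9 and 0% of all genes had an adjusted p under 0.05 (smallest for the 9, 0.995), while 906 of all genes had an unadjusted p under 0.05, 151 of them higher and 755 (3.54%) lower. Of the 9, 1 gene (Gsr) was higher at an unadjusted p under 0.05, against 0.709% of all genes. The differences were largest for Gsr, Gclm and Gpx2, intermediate for Nqo1, Gclc and Txnrd1, and close to 0 for Srxn1 and Keap1, and the transcript of Nfe2l2 was the only one with a negative difference, which turned positive (0.10) when arrays were scaled by their median, a scaling that moved the median of all genes to 0.34. Because RNA came from tissue holding several cell types, more cells of a type and more RNA per cell cannot be told apart.

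**Figure D1:**
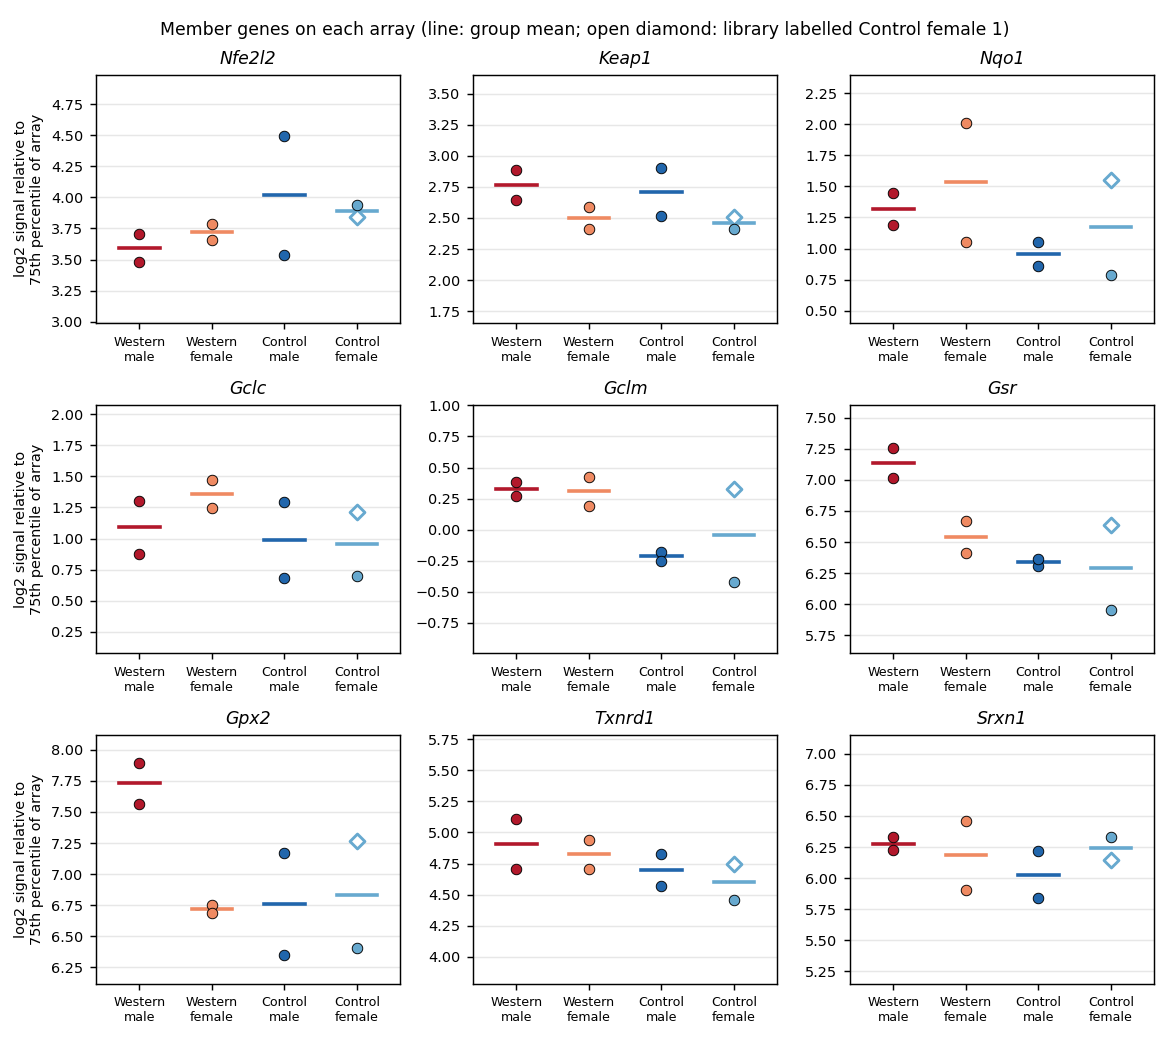
Signal of each of the 9 tested genes on each array (y axis: log2 signal relative to the 75th percentile of the array, all panels spanning 2 units; x axis: group, 2 arrays each). Lines are group means and the open diamond is the library labelled Control female 1. For Gclm it lies at 0.33, inside the Western range of 0.19 to 0.43, above the other 3 control arrays.

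Among the regulators, Nfe2l2 measured 3.48, 3.71, 3.66 and 3.79 on Western male 1, Western male 2, Western female 1 and Western female 2. On the control diet it measured 3.54, 4.49, 3.84 and 3.93 on Control male 1, Control male 2, the library labelled Control female 1 and Control female 2. The highest value was that of Control male 2 and the diets overlapped through Control male 1. The mean was 3.66 ± 0.13 on the Western diet and 3.95 ± 0.40 on the control diet (SD, n = 4), a log2 difference of -0.29 ± 0.24 (SE, adjusted p = 0.995 by limma). Without Control male 2 the difference was -0.055, and without Control male 1 it was -0.53. Keap1, the inhibitor of Nrf2, measured 2.88, 2.65, 2.59 and 2.41 on the Western arrays, in the same order, and 2.52, 2.90, 2.51 and 2.41 on the control arrays. The ranges almost coincided, and the difference was 0.05 ± 0.16 (SE, 95% interval -0.35 to 0.44). It turned to -0.046 without Control male 1.

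Nqo1 encodes a quinone reductase and is widely used as a readout of Nrf2 activity. It measured 1.19, 1.44, 1.06 and 2.01 on the Western arrays and 0.86, 1.06, 1.55 and 0.79 on the control arrays. Western female 2 was the highest array and the library labelled Control female 1 the second highest. The mean was 1.42 ± 0.42 on the Western diet and 1.07 ± 0.35 on the control diet (SD, n = 4), a difference of 0.36 ± 0.29 (SE, adjusted p = 0.995 by limma). Leaving out 1 array gave 0.12 without Western female 2, 0.60 without Western female 1, 0.17 without Control female 2 and 0.55 when the library labelled Control female 1 was dropped. Western female 2 also carried the highest adipocyte markers (3 of 5 measured, Adipoq, Cfd and Cidec), whose mean stood 4.0 above its average over arrays, against -1.41 to 0.88 on the other arrays. The summed adipocyte signal, in multiples of the 75th percentile, ranged from 7.11 to 18.9 on Western arrays and from 4.55 to 11.1 on control arrays. It was 18.9 on Western female 2 and 17.3 on Western female 1, the lowest Western array for Nqo1. The mean of the adipocyte markers on Western female 1 nevertheless stood at -0.91 relative to its average, with 2 of the 3 well above background. On Western female 2 all 3 were well above background. The part of the adipocyte signal in the value of Nqo1 was not tested.

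The supply of glutathione depends on cystine import and on glutamate-cysteine ligase. Slc7a11, the cystine carrier of the glutamate exchanger, measured -5.75, -5.73, -7.82 and -7.65 on the Western arrays and -7.81, -7.44, -7.83 and -5.29 on the control arrays. Only Western male 1 had it well above background, so it was not tested and no fold is given. Gclc, the catalytic subunit of the ligase, measured 1.30, 0.87, 1.25 and 1.47 on the Western arrays and 0.68, 1.29, 1.21 and 0.70 on the control arrays. The control arrays fell into a low and a high pair, and the high pair overlapped the Western arrays. The difference was 0.25 ± 0.23 (SE). It was 0.38 when the library labelled Control female 1 was dropped, 0.12 without Control female 2, 0.10 without Control male 1, 0.40 without Control male 2 and 0.14 without Western male 1.

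Gclm, the regulatory subunit of the ligase, measured 0.27, 0.38, 0.43 and 0.19 on the Western arrays and -0.18, -0.25, 0.33 and -0.42 on the control arrays. The Western arrays lay close together, and the library labelled Control female 1 was the only control array above 0. The mean was 0.32 ± 0.11 on the Western diet and -0.13 ± 0.32 on the control diet (SD, n = 4). This was a 1.37-fold difference (log2 0.45 ± 0.20 SE, adjusted p = 0.995 by limma, higher than 97.0% of all genes tested). Without the library labelled Control female 1 the difference was 1.55-fold (log2 0.64 ± 0.17 SE). Control female 2, the lowest array, then stood alone for the control females. Without Control female 2 the difference was 1.20-fold (log2 0.26 ± 0.17 SE).

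Gsr encodes glutathione reductase, which returns oxidised glutathione to its reduced form with NADPH. It measured 7.02, 7.26, 6.41 and 6.67 on the Western arrays and 6.31, 6.36, 6.63 and 5.95 on the control arrays. Both Western male arrays lay above every other array, and the library labelled Control female 1 was the highest of the control arrays. The mean was 6.84 ± 0.37 on the Western diet and 6.31 ± 0.28 on the control diet (SD, n = 4). The 1.44-fold difference (log2 0.52 ± 0.20 SE) had an unadjusted p of 0.0405 and an adjusted p of 0.995 by limma, and was larger than that of 97.7% of all genes. A second probe of Gsr gave 0.67. Without the library labelled Control female 1 the difference was 1.62-fold (log2 0.70 ± 0.18 SE). Control female 2, the lowest array, then stood alone for the control females. Without Control female 2 the difference was 1.28-fold (log2 0.35 ± 0.18 SE).

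Gpx2 encodes the glutathione peroxidase of the gastrointestinal epithelium, which uses glutathione to reduce hydroperoxides. It measured 7.57, 7.89, 6.75 and 6.69 on the Western arrays and 7.17, 6.35, 7.26 and 6.41 on the control arrays. The Western female arrays lay between the control arrays, and only the Western male arrays stood above them. The mean was 7.22 ± 0.60 on the Western diet and 6.80 ± 0.49 on the control diet (SD, n = 4), a difference of 0.43 ± 0.28 (SE, adjusted p = 0.995 by limma). Dropping 1 array gave 0.64 for the library labelled Control female 1, 0.21 for Control female 2 and 0.22 for Control male 2. Over the 8 arrays Gpx2 varied most among the 9 genes, with a range of 1.55, and Keap1 varied least, with a range of 0.49.

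In the thioredoxin system, Txnrd1 encodes the cytosolic thioredoxin reductase. It measured 4.71, 5.11, 4.94 and 4.71 on the Western arrays and 4.57, 4.83, 4.75 and 4.46 on the control arrays. The diets overlapped in the middle of the range, and the difference was 0.22 ± 0.18 (SE), or 0.12 without Western male 2 and 0.14 without Control female 2. Srxn1, sulfiredoxin, which repairs over-oxidised peroxiredoxins, measured 6.22, 6.33, 6.46 and 5.90 on the Western arrays and 5.84, 6.22, 6.15 and 6.33 on the control arrays. The lowest value was that of Control male 1 and the highest that of Western female 1, with the other arrays of both diets mixed between them, and the difference was 0.10 ± 0.19 (SE, 95% interval -0.37 to 0.56). It turned to -0.044 without Western female 1.

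**Figure D2:**
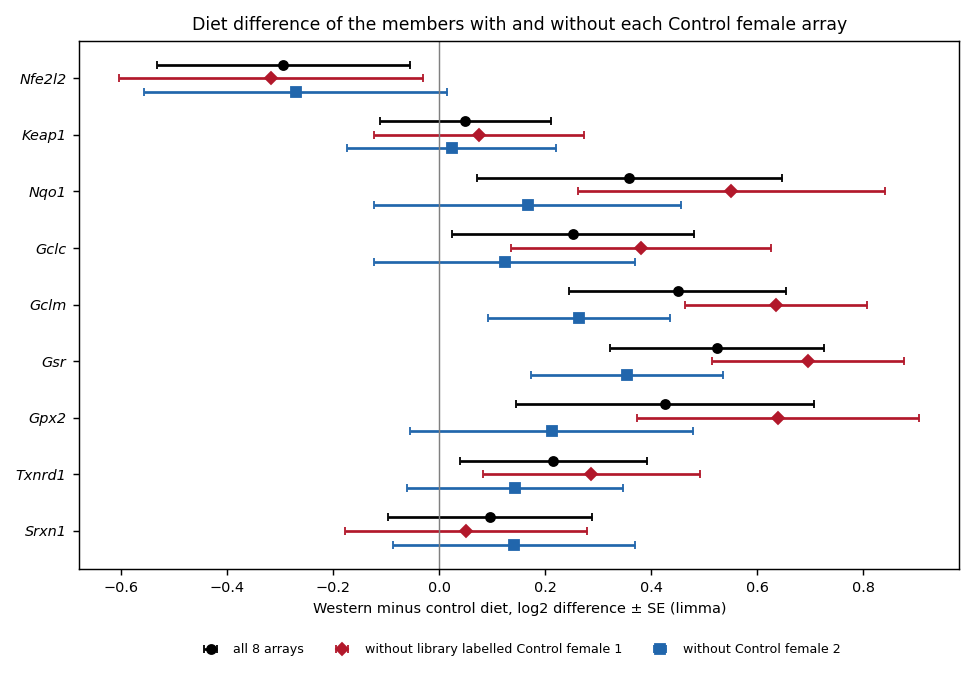
Western minus control difference of the 9 genes (x axis: log2 difference with SE from limma; y axis: gene, by role). Black circles use all 8 arrays, red diamonds leave out the library labelled Control female 1 and blue squares leave out Control female 2. For Gsr the 3 values are 0.52, 0.70 and 0.35.

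Single libraries decided how far the diets separated. With all 8 arrays, 0 of the 9 genes had Western arrays that all lay above the control arrays, against 1.04% of all genes, and 0 had them all below, against 2.21%. Without the library labelled Control female 1, 3 of the 9 did, namely Nqo1, Gclm and Gsr, against 2.61% of all genes (0 lay below, against 3.68%). The median difference of the 9 without that library was 0.38, against -0.062 over all genes. Nqo1 was close to a tie there, with 1.0556 on Western female 1 against 1.0552 on Control male 2. Without Control female 2, 0 of the 9 had Western arrays all above the control arrays, against 2.01% of all genes (0 lay below, against 2.58%). The median was then 0.14, against -0.027 over all genes. By limma, 0 of the 9 passed an adjusted p of 0.05 in either case (0% of all genes in both), with a smallest adjusted p of 0.161 and of 1.000. At an unadjusted p under 0.05, 2 of the 9 were higher without the library labelled Control female 1, Gclm and Gsr, against 0.981% of all genes, and 0 without Control female 2, against 1.82%. Within slide 1, where the library labelled Control female 1 is the only control female, the median of the 9 was 0.22 and 6 of the 9 were above 0, with Nqo1 at -0.088, Gpx2 at -0.061 and Nfe2l2 at -0.12. Within slide 3, where only females could be compared, Nqo1 differed by 1.22, Gclc by 0.77, Gsr by 0.72, Gclm by 0.61, Gpx2 by 0.28, Txnrd1 by 0.25, Keap1 by 0.004, Nfe2l2 by -0.15 and Srxn1 by -0.43. With scan day as a block the median was 0.28.

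Markers of other cell types varied between libraries at the same time. The 4 measured of 5 erythrocyte markers had a summed signal of 57.7 to 163.4 on the Western arrays and 17.3 to 80.0 on the control arrays, in multiples of the 75th percentile, with the lowest sums on both control female arrays. Smooth muscle markers (6 of 6 measured) had sums of 9.65 to 22.2 on the Western arrays and 6.71 to 51.3 on the control arrays, the highest on Control male 1. No measured erythrocyte marker fell below background, and the part of these cells in the differences was not tested. Epithelial markers had similar sums, 826 to 1147 on Western and 925 to 1215 on control arrays. Enterocyte markers (5 of 5 measured) had sums of 947 to 1285 on Western and 1209 to 1313 on control arrays. Their mean relative to the average over arrays was -0.12 on the Western diet and 0.12 on the control diet. The part of enterocytes in the differences was not tested.

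The design also crossed diet with sex. Among females, 6 of the 9 genes had a positive Western minus control difference (median 0.22, against -0.10 over all genes, of which 38% were above 0). By limma 0 of the 9 passed (0% of all genes), and at an unadjusted p under 0.05 there were 0 higher and 0 lower, against 0.662% and 4.47% of all genes. Only Gclc had both Western female arrays above both control female arrays, against 10.1% of all genes, with 1.25 and 1.47 on the Western diet and 1.21 and 0.70 on the control diet (log2 0.40 ± 0.32 SE). For Gclc in females this was 0.66 when the library labelled Control female 1 was dropped, 0.14 without Control female 2, 0.033 within slide 1 and 0.77 within slide 3. Only Nfe2l2 had both below, against 21.2% of all genes, with 3.66 and 3.79 on the Western diet and 3.84 and 3.93 on the control diet (log2 -0.16 ± 0.34 SE, -0.10 without Western female 1). Leaving out either control female array set the Western females against a single control array. With the library labelled Control female 1 left out, this was Control female 2, the array apart on the first principal component. In that case 7 of the 9 were positive, with a median of 0.36. With Control female 2 left out, it was the library with Y-linked transcripts at male level. Then 3 of the 9 were positive, with a median of -0.016. The share of all genes above 0 is not given for either case, so these counts cannot be read as particular to the 9. Gpx2 in females was 0.31 in the first case and -0.55 in the second, and Gclm was 0.73 in the first.

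Among males, where neither Control female array enters the means, 8 of the 9 genes had a positive difference (median 0.25, against -0.00097 over all genes, of which 49.9% were above 0). Both Western male arrays lay above both control male arrays for 5 of the 9 genes (Nqo1, Gclm, Gsr, Gpx2 and Srxn1), against 13% of all genes, and 0 had both below, against 12.4%. Srxn1 was close to a tie, with 6.223 on Western male 1 against 6.217 on Control male 2. By limma, 0 of the 9 passed an adjusted p of 0.05 (0% of all genes, 281 at an unadjusted p under 0.05). At an unadjusted p under 0.05, 1 of the 9 (Gsr) was higher and 0 lower, against 0.61% and 0.709% of all genes. Gpx2 had the largest of these differences, with 7.57 and 7.89 on the Western diet and 7.17 and 6.35 on the control diet, or 1.96-fold (log2 0.97 ± 0.40 SE, 0.56 without Control male 2). Gsr was 1.74-fold higher (log2 0.80 ± 0.29 SE, unadjusted p = 0.0308, adjusted p = 1.000 by limma). Gclm was 1.46-fold higher (log2 0.54 ± 0.29 SE), Nqo1 1.28-fold (log2 0.36 ± 0.41 SE, 0.23 without Western male 2) and Srxn1 1.19-fold (log2 0.25 ± 0.27 SE, 0.06 without Control male 1 and 0.44 without Control male 2). Within slide 1, Gpx2 differed by 0.39 and Gsr by 0.71 between the male arrays.

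**Figure D3:**
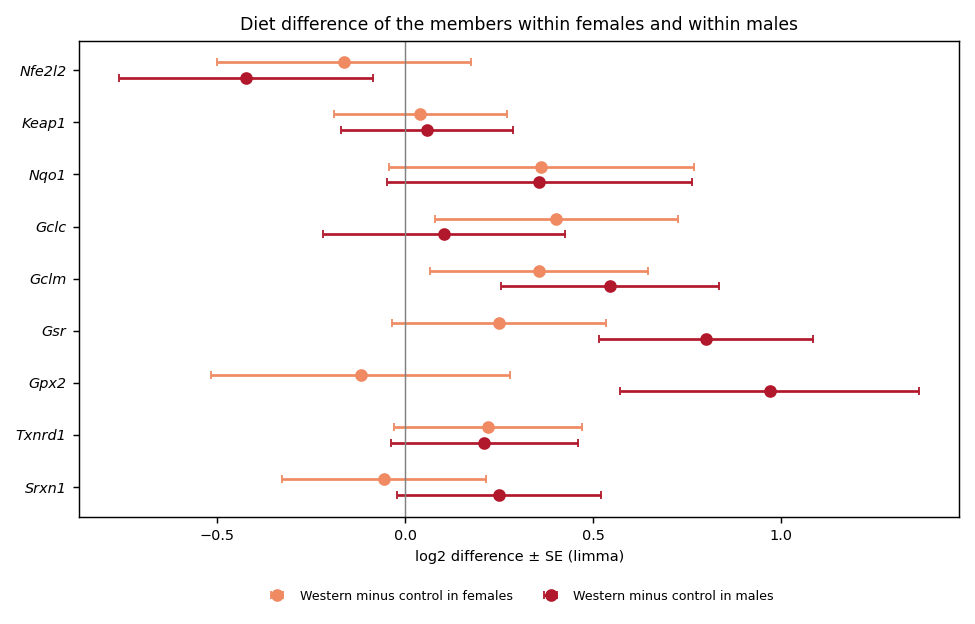
Western minus control difference of the 9 genes within females (orange) and within males (red), each over 2 arrays per diet (x axis: log2 difference with SE from limma; y axis: gene). Gpx2 lies at -0.12 in females and 0.97 in males.

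Whether the diet difference differed between the sexes was tested directly. For the 9 genes the difference in females minus that in males ranged from -1.09 for Gpx2 to 0.30 for Gclc, and 4 of the 9 were above 0, against 35% of all genes. By limma 0 of the 9 passed (every adjusted p = 1.000, 0% of all genes past the threshold), and the smallest unadjusted p was 0.101, while 0.474% of all genes were higher and 1.21% lower at an unadjusted p under 0.05. For Gpx2 the 95% interval ran from -2.46 to 0.29, and its value was -0.66 when the library labelled Control female 1 was dropped, -0.67 without Control male 2 and -1.52 without Control female 2. Without these arrays in turn 6, 0 and 2 of the 9 were above 0, and Gclc was 0.56, -0.0055 and 0.043. The share of all genes above 0 without these arrays is not given, so these counts cannot be read as particular to the 9. The unadjusted p of Gpx2 was 0.0328 without Control female 2 and 0.0411 without Control male 1, where its value was -1.5 (adjusted p = 1.000 by limma in both). Female minus male differences averaged over the diets ranged from -0.47 for Gpx2 to 0.21 for Nqo1 (5 of the 9 above 0, against 60.8% of all genes), with none of the 9 whose arrays did not overlap between the sexes (1.77% of all genes lay higher and 1.12% lower in females). By limma the smallest adjusted p among the 9 was 0.917, and 0% of all genes passed. None of the 9 had an unadjusted p under 0.05, against 2.53% of all genes higher and 1.32% lower. This comparison counts the library labelled Control female 1 as female. When it was dropped, 3 of the 9 were above 0 (smallest adjusted p = 0.348 by limma), with Nqo1 at 0.023, Gpx2 at -0.68 (unadjusted p = 0.0470, adjusted p = 0.378) and Gsr at -0.49 (unadjusted p = 0.0393, adjusted p = 0.348). Without Control female 2, 4 were above 0, with Gpx2 at -0.25 and Nqo1 at 0.41. Without Control male 1, 2 were above 0, and without Western female 2, 3 were. For the sex comparison, too, the share of all genes above 0 with an array left out is not given.

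How far the genes varied together over the 8 arrays was described for all 36 pairs. Pearson's r ranged from -0.65 to 0.84 with a median of 0.27, and 27 pairs were positive. The share of positive pairs among other genes is not given, so this count cannot be read as particular to these genes. The highest was that of Gsr and Gpx2, which recycle and use glutathione (r = 0.84, exact permutation p = 0.00980, adjusted over the pairs 0.353, Spearman's rho 0.71, exact permutation p = 0.0576). It was 0.62 without the 2 arrays farthest from the median of Gsr. Gclm and Gsr had r = 0.75 (exact permutation p = 0.0329, adjusted 0.493, rho 0.67, exact permutation p = 0.0831), and 0.49 without the 2 farthest arrays. The subunits Gclc and Gclm had r = 0.49 (exact permutation p = 0.234, adjusted 0.767, rho 0.17, exact permutation p = 0.703), and this turned to -0.36 without the 2 farthest arrays. Gsr and Txnrd1, both NADPH-dependent reductases, had r = 0.68 (exact permutation p = 0.0602, adjusted 0.493, rho 0.55, exact permutation p = 0.171), turning to -0.13 without the 2 farthest arrays. Nfe2l2 and Nqo1 had r = -0.07 (exact permutation p = 0.861, adjusted 0.968, rho -0.10, exact permutation p = 0.840; 0.19 without the 2 farthest arrays). Without Control female 2, the array apart on the first principal component, r was 0.80 for Gsr and Gpx2 and 0.59 for Gclm and Gsr. It was then 0.23 for Gclc and Gclm, 0.50 for Gsr and Txnrd1 and 0.0042 for Nfe2l2 and Nqo1. No pair passed after adjustment over all 8 arrays, and slide 1 with 4 arrays and slide 3 with 3 were too small for a value of their own.

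**Figure D4:**
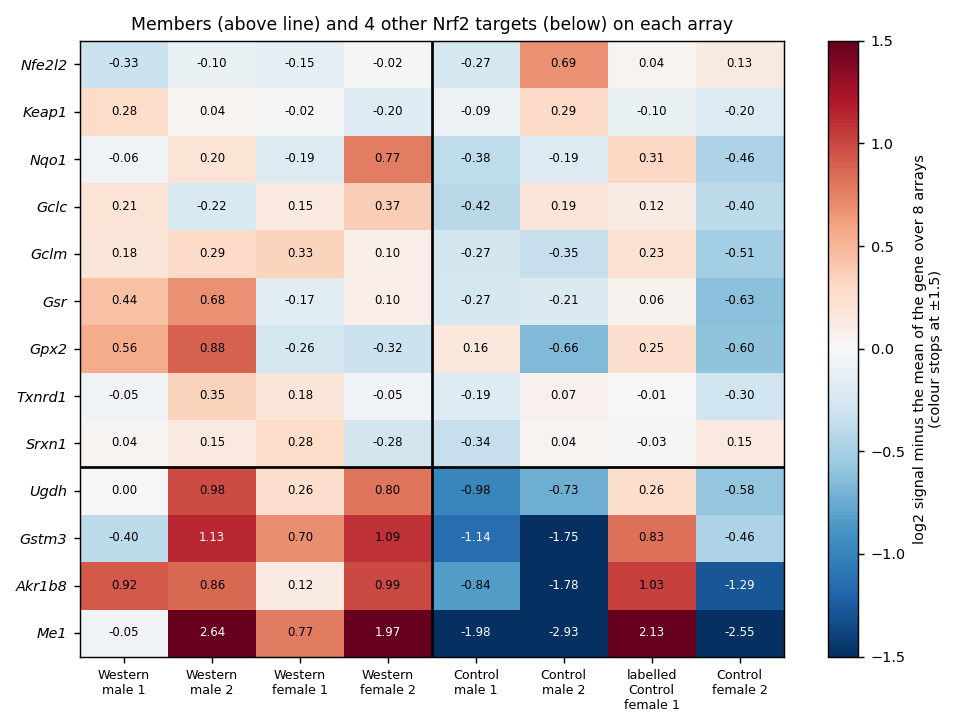
Log2 signal of each gene minus its mean over the 8 arrays (rows: the 9 genes above the line and 4 other Nrf2 targets below it; columns: arrays, Western to the left of the vertical line). The column labelled Control female 1 is at 2.13 for Me1 and 1.03 for Akr1b8, on the side of the Western arrays.

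The other genes of the pathway were read from 3 lists. The list of other Nrf2 targets, enzymes of haem, NADPH, quinones, conjugation and export, had 27 of 29 members measured. Of these, 26 had a positive diet difference and 1 a negative one, against 42% of all genes above 0. The median was 0.38, against -0.049 over all genes (-0.062 without the library labelled Control female 1 and -0.027 without Control female 2). The lists were drawn up with results of these data known, so these counts are no independent evidence. By limma 0 of the 27 passed (0% of all genes, smallest adjusted p = 0.995), and 3 were higher at an unadjusted p under 0.05, against 0.709% of all genes. With the library labelled Control female 1 left out, 26 were positive with a median of 0.41, and 6 were higher at an unadjusted p under 0.05, against 0.981% of all genes (smallest adjusted p = 0.0867 by limma). With Control female 2 left out, 23 were positive with a median of 0.19, and 1 was higher at that p, against 1.82% of all genes (smallest adjusted p = 1.000). Me1, cytosolic malic enzyme, a source of NADPH, measured 1.31, 4.01, 2.14 and 3.33 on the Western arrays and -0.62, -1.57, 3.49 and -1.19 on the control arrays. The library labelled Control female 1 exceeded 3 of the 4 Western arrays, while the other control arrays lay below all of them. The difference of Me1 was 2.67 ± 1.15 (SE, adjusted p = 0.995 by limma). It was 3.84 ± 0.76 (SE, adjusted p = 0.107 by limma) without that library and 1.5 ± 0.76 without Control female 2.

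For 3 further targets, too, the library labelled Control female 1 lay within or above the Western range and the other control arrays below it. Akr1b8, an aldo-keto reductase, measured 2.18, 2.12, 1.38 and 2.24 on the Western arrays and 0.42, -0.53, 2.29 and -0.03 on the control arrays. Its difference of 1.44 ± 0.55 (SE) was 2.02 when the library labelled Control female 1 was dropped (adjusted p = 0.0867 by limma) and 0.86 without Control female 2. Ugdh, which makes UDP-glucuronic acid for conjugation, measured 5.93, 6.91, 6.19 and 6.73 on the Western arrays and 4.95, 5.2, 6.19 and 5.35 on the control arrays. It differed by 1.02 ± 0.32 (SE), and by 1.23 and 0.81 without these libraries in turn. Gstm3, a glutathione transferase with close paralogs that a probe may not tell apart, measured 3.21, 4.74, 4.31 and 4.70 on the Western arrays and 2.47, 1.86, 4.44 and 3.15 on the control arrays. It differed by 1.26 ± 0.45 (SE), and by 1.59 and 0.94 without these libraries. With no array left out, the Western arrays all lay above the control arrays for 0 of the 27 targets, against 1.04% of all genes. They all lay below for 0, against 2.21%. Without the library labelled Control female 1, the Western arrays all lay above for 10 of the 27, against 2.61% of all genes. These were Ftl1, Pgd, Me1, Ugdh, Akr1b8, Gsta2, Gsta3, Gstm1, Gstm3 and Gstp1, named after their values were seen. Without Control female 2 they all lay above for 1 (Hmox1), against 2.01%. Within slide 1 the differences were 0.29 for Me1, 0.42 for Akr1b8, 0.49 for Ugdh and 0.31 for Gstm3.

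**Figure D5:**
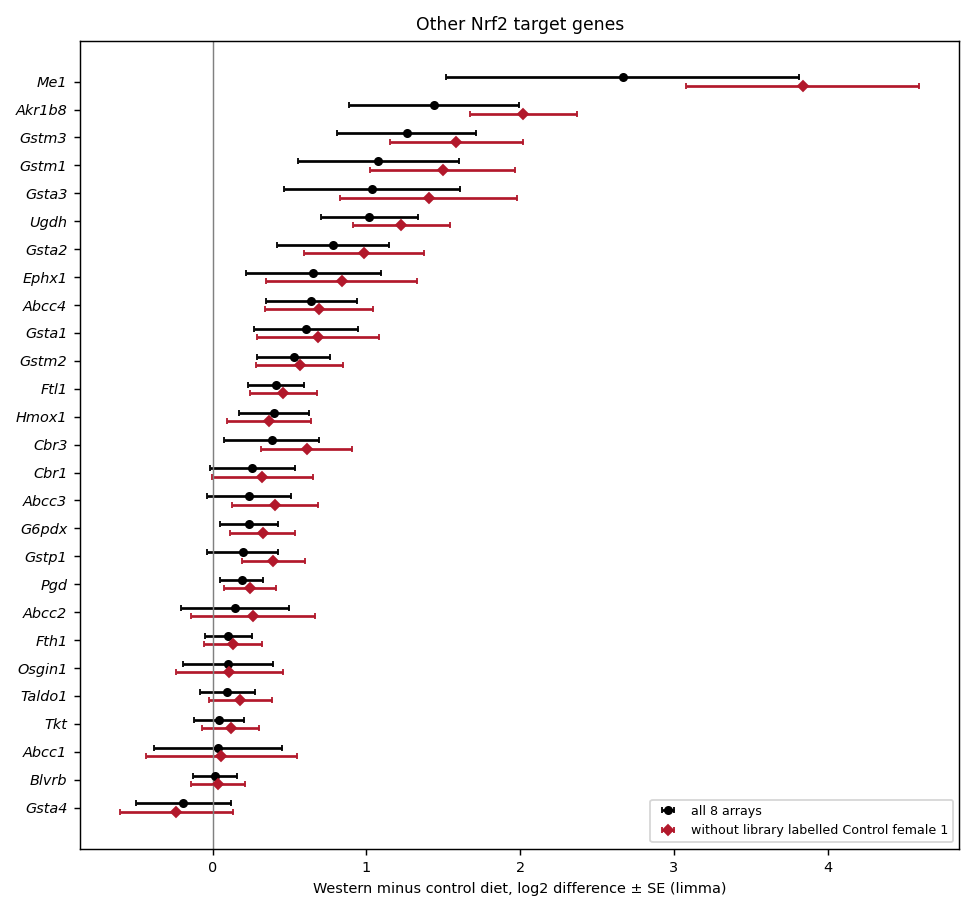
Western minus control difference of the 27 measured genes of the list of other Nrf2 targets (x axis: log2 difference with SE from limma; y axis: gene, ordered by the value over all arrays). Black circles use all 8 arrays and red diamonds leave out the library labelled Control female 1. Me1 lies at 2.67 and 3.84, and Gsta4 alone lies below 0.

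Regulators and partners of Nrf2 gave smaller values. Of 11 measured among 12, 4 had a positive and 7 a negative diet difference (median -0.053), against 42% of all genes above 0. By limma 0 passed (0% of all genes), and 0 were higher or lower at an unadjusted p under 0.05, against 0.709% and 3.54% of all genes. Sqstm1, the autophagy receptor p62 that binds Keap1, differed by 0.37 ± 0.22 (SE), Nfe2l1, a relative of Nrf2, by -0.19 ± 0.14, the small Maf gene Maff by -0.27 ± 0.21 and the kinase gene Gsk3b by -0.24 ± 0.24, the last 3 turning positive under median scaling. Single arrays moved these values: Sqstm1 was 0.21 without Control male 1. Maff was -0.41 when the library labelled Control female 1 was dropped, -0.13 without Control female 2 and -0.16 without Control male 2. Gsk3b was -0.028 without Western female 2, -0.45 without Western female 1 and -0.13 when the library labelled Control female 1 was dropped. Other glutathione, thioredoxin and peroxide enzymes had 31 of 31 measured, 19 positive and 12 negative (median 0.07), against 42% of all genes above 0. Here too 0 passed by limma (0% of all genes), and 0 were higher or lower at an unadjusted p under 0.05, against 0.709% and 3.54% of all genes. Sod1, the cytosolic superoxide dismutase, differed by 0.38 ± 0.23 (SE), the glutaredoxin gene Glrx2 by 0.31 ± 0.19, the peroxiredoxin gene Prdx1 by 0.28 ± 0.18 and Sesn2, a stress-responsive sestrin, by -0.24 ± 0.14, which also turned positive under median scaling. Sod1 was 0.24 without Control female 2 and 0.20 without Western male 2, Glrx2 was 0.19 without Western female 1 and 0.20 without Western male 2, and Prdx1 was 0.17 without Western male 2.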

How the data were processed

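Per the file headers, each deposited file is the output of Feature Extraction 10.7.3.1 for 1 array of Agilent design 026655, annotated on build mm9. The deposited values were processed signal intensity on a linear scale, already corrected for background by the scanner software, with no scaling between arrays recorded. The 1377 control spots and spots with outlier marks (94 to 216 per array) were left out, spots of a probe were averaged, and no spot was saturated. Values are log2 intensity minus the 75th percentile of each array. A probe entered when 2 or more arrays had it well above background, and the brightest probe stood for a gene (21303 genes, 14824 with a symbol). Symbols came from RefSeq (GRCm38.p6) by accession without version: of 39429 probes 26412 were named. The only coordinates given are those of RefSeq promoters on GRCm38.p6; none are given for probes or genes, since the header build differs.

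Differences came from limma 3.58.1 (R 4.3.3) as 4 group means over 8 arrays, with Benjamini-Hochberg adjustment over all genes at 0.05. The fit was tested on simulated data with known changes. These were all larger than the diet differences over both sexes of those of the 10 genes that were tested. The simulation therefore does not show whether differences of that size could be called. Alternatives were median and quantile scaling, normexp, other filters on dim probes, the mean over probes, slide, scan day and replicate number as blocks, single slides, male arrays only and leaving out arrays. The files hold no mean signal, so the normexp alternative used the median spot signal. The genes, lists and tests were chosen with earlier results of these data known. The text names the 10 genes, the 4 genes of each list with the smallest p for diet, Ddx3y and Eif2s3y, the 3 genes most like each of Nqo1 and Nfe2l2, and 3 adipocyte markers. It also names Gsta4 and the targets without overlap when a Control female array was left out. The other marker lists are given as counts and sums. Differences within a sex are printed for genes with an unadjusted p under 0.05 or without overlap. Values of Gpx2 and Gclm in females and the differences within slide 3 are also printed. The number of arrays limits the precision.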

Additional observations from a re-analysis of the deposited data

How the results depend on the processing

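Of the 9 genes, each kept an adjusted p above 0.05 for diet under every alternative that gave a test (2 other scalings, normexp, other filters on dim probes, the mean over probes, slide, scan day or replicate number as a block, and leaving out each array). Scaling by the median of each array, which moved the median of all genes to 0.34, gave a median of 0.64 for the 9 genes and turned Nfe2l2 to 0.10 (0.48 in females), Nfe2l1 to 0.20, Maff to 0.12, Gsk3b to 0.15 and Sesn2 to 0.15. Its calls numbered 93 for diet over both sexes, 46 for diet among males, 98 for diet among females, 42 for the diet difference between sexes and 144 for sex, against 0 in each case with the 75th percentile, with Me1 (adjusted p = 1.88e-06 by limma) and Akr1b8 (adjusted p = 0.0439) among them. Keap1 was -0.042 with normexp. Within slide 1, Nqo1 was -0.088, Gpx2 -0.061 and Maff 0.12. Leaving out 1 array gave 0 calls for diet over both sexes, 0 among males and 0 for the diet difference between sexes, 0 to 365 among females and 0 to 3 for sex (365 and 3 without the library labelled Control female 1), a median of 0.14 to 0.38 for the 9 genes, -0.046 to 0.15 for Keap1 and -0.044 to 0.24 for Srxn1. The cause of these changes was not tested. The replicate block left the count of genes past the threshold for diet at 0, and deviations of arrays with the same number correlated between -0.12 and 0.35 over pairs of groups, so the numbers were not taken as pairs. Without both Control female arrays, an alternative chosen after seeing the data, 0 genes passed in males. The overlap counts without single arrays were also chosen then. Slc7a11 had signal too near background for a comparison.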

Other observations

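Among 12392 genes well above background on all 8 arrays, those whose values followed Nqo1 most closely were Pabpc4 (Pearson's r = 0.98 over 8 arrays), Enc1 (0.97) and Rtn4 (0.96), with diet differences of 0.08, 0.21 and 0.42. Those closest to Nfe2l2 were Clptm1 (0.98), Slc9a3r1 (0.97) and Cdc42se1 (0.95), with diet differences of -0.20, -0.19 and -0.13. These are the highest values of a search over all those genes and are given as a description. None of these genes was in the lists of the pathway.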
